A study of Mus musculus with 6 samples.

Results

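The leukocyte integrin genes of the beta 2 and beta 7 groups were examined in mouse LSK cells with and without SRF. The genes are Itgb2, Itgal, Itgam, Itgax, Itgb7 and Itgae, and their probe sets were selected by name alone, as those whose platform annotation gives only the gene in question. This gave 8 probe sets for 6 genes, out of 45037 probe sets that are not Affymetrix controls and 18193 genes with a probe set of their own. Itgal and Itgae had 2 probe sets each and the other members 1 each. LSK cells are the lineage-negative, Sca1-positive, c-Kit-positive fraction of bone marrow, which holds stem cells and multipotent progenitors. Control cells came from C57BL/6 mice with Srf+/+ alleles and the Mx1-Cre transgene, and SRF-null cells from C57BL/6 mice with Srf flx/flx alleles and the same transgene. Both genotypes were given the Cre inducer pIpC, a double-stranded RNA that also sets off an interferon response, in 3 injections of 200 µg each, 2 days apart and starting at 6 weeks of age. Cells were sorted 35 days after the last injection. Mx1-Cre answers to interferon in many tissues, so the deletion is not restricted to LSK cells. Each genotype is represented by 3 arrays, and each array by a pool of animals, with the number per pool unstated in the labels. The p-values therefore measure only the spread between these pools.

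Integrins are cell surface adhesion receptors made of an alpha and a beta chain, and neither chain reaches the surface without the other. The beta 2 chain, encoded by Itgb2, pairs with the alpha chains of Itgal (forming LFA-1), Itgam (forming Mac-1), Itgax and Itgad. These receptors bind ICAM proteins, complement fragments and fibrinogen, and they let leukocytes adhere, migrate and engulf particles. The beta 7 chain, encoded by Itgb7, pairs with the alpha 4 chain of Itga4 to bind MAdCAM-1 and VCAM-1 in gut homing, or with the alpha E chain of Itgae, known from lymphocytes and dendritic cells of epithelia, to bind E-cadherin. Mac-1 is a common component of the antibody mixture that removes lineage-positive cells. The labels do not list the antibodies of this sort.

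The alpha chain genes that pair with Itgb2 all lie on chromosome 7. In the order of protein-coding genes in RefSeq (GRCm38.p6), Itgam, Itgax and Itgad are direct neighbours and 35 genes separate Itgal from Itgam. Itgb2 lies on chromosome 10, Itgb7 on 15 and Itgae on 11, whereas Srf lies on 17. RefSeq sequence upstream of the annotated start was at hand for 3 of the 6 members. It is shown because SRF binds DNA at the CArG box and because PU.1, the myeloid and lymphoid factor known to drive Itgam, binds cores such as GAGGAA. Each window holds the 250 bases before the start of the gene, 5′ to 3′ on the gene's own strand, in build GRCm38.p6. Capitals mark the core GAGGAA or its reverse complement.
Itgam upstream window, chr7:128062390-128062639, plus strand: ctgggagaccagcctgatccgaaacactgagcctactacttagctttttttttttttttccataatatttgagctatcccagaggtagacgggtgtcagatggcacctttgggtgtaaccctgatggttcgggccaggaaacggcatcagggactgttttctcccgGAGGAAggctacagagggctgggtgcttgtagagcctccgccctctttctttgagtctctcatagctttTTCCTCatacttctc
Itgax upstream window, chr7:128129300-128129549, plus strand: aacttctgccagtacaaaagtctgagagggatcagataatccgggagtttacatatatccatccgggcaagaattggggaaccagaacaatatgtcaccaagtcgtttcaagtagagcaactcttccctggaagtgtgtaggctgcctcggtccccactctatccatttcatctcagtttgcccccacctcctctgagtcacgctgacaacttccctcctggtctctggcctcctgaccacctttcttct
Itgb7 upstream window, chr15:102231936-102232185, minus strand: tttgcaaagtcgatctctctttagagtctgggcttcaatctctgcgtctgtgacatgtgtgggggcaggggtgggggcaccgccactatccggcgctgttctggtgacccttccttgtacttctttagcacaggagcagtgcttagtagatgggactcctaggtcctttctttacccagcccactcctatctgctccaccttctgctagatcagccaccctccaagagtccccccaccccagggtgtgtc
The Itgam window held 2 cores, of which the first base lies 84 bases before the start for the forward copy and 15 bases before it for the reverse copy. The Itgax and Itgb7 windows held 0, and 23.3% of all 32851 promoter windows of this length held at least 1 on either strand. The CArG box was searched on both strands, which it reads alike, and was found in 0 of these 3 windows and in 1.47% of all windows. Of the PU.1 cores only GAGGAA was searched, so other PU.1 cores may lie inside any of these windows. These letters say nothing of binding outside the windows.

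Signals were read on the scale log2(signal + 16) after quantile normalization, on which 4 is the bottom, and all values below are on that scale unless a signal is named. Levels are mean ± SD over n = 3 arrays, and differences are SRF-null minus control with the standard error (SE) of limma. Limma's moderated test was adjusted with the Benjamini-Hochberg method over all genes at a threshold of 0.05. The arrays had median signals of 200.5 to 292.1. Srf itself was lower on its brighter probe set, at 12.60 ± 0.19 in SRF-null against 13.03 ± 0.02 in control cells, with groups that did not overlap (limma adjusted p = 0.771). The dimmer Srf probe set was at 9.60 ± 0.59 in control and 9.70 ± 0.38 in SRF-null cells, a difference of 0.10 (SE 0.35) with overlapping groups. The position of either probe set relative to the deleted part is unknown, so neither measures the deletion. The c-Kit gene Kit was at 15.09 ± 0.31 in control and 14.89 ± 0.08 in SRF-null cells, and 10 of 12 genes fixed as markers of LSK cells were measured, with 0 of these below 6 on every array. Of these 10 genes 3 were higher and 7 lower in SRF-null cells, with a median of −0.09 and Slamf1 at −1.40 (SE 0.61), and 0 passed in limma. Their mean level was lowest on SRF-null replicate 3 (14.54, against 14.91 to 15.29 on control arrays). The Sca1 gene Ly6a was not among the genes with a probe set of their own. Transcripts of the X and Y chromosomes set control replicate 2 and SRF-null replicate 1 apart as pools of a single sex each, and of opposite sexes. Control replicate 2 had the X transcript Xist at 15.97 and the Y transcript Kdm5d at 4.0. SRF-null replicate 1 had Xist at 5.03 and Kdm5d at 11.98, and the remaining arrays carried both. Sex was therefore not balanced between the genotypes. The members' values without control replicate 2 and SRF-null replicate 1 are given as well. Leaving out these pools does not balance sex, as the other arrays also differed in their Y transcripts. Kdm5d was at 10.54 and 10.57 on control replicates 1 and 3 and at 11.84 and 11.97 on SRF-null replicates 2 and 3. Xist was at 16.24 and 15.57 on these control arrays and at 15.60 and 15.13 on these SRF-null arrays.

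Itgb2, the common beta chain, was the member whose transcript separated the genotypes. Control arrays 1, 2 and 3 were at 11.31, 11.34 and 11.92, and SRF-null arrays 1, 2 and 3 at 12.41, 12.52 and 12.12. Every SRF-null array lay above every control array, and the gap was narrowest between control replicate 3 and SRF-null replicate 3. The difference was 0.83 (SE 0.21, 95% interval 0.31 to 1.35), or 1.78-fold, from 11.52 ± 0.35 to 12.35 ± 0.20. Limma gave a p of 0.00762 and an adjusted p of 0.641, so Itgb2 did not pass over all genes. Groups that did not overlap were found for 10.6% of all genes in either direction and for 5.14% with the SRF-null side higher. An adjusted p under 0.05 was reached by 0.0% of the 18193 genes in limma, and an unadjusted p under 0.05 by 5.74% of them. Without control replicate 2 and SRF-null replicate 1 the difference was 0.71, and its unadjusted p in limma no longer lay under 0.05. In these sorted pools, more cells carrying a transcript and more of it per cell cannot be told apart, for Itgb2 or any other member. In deposited signal, Itgb2 ran from 2544 to 3839 on control and from 4282 to 5707 on SRF-null arrays.

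**Figure D1:**
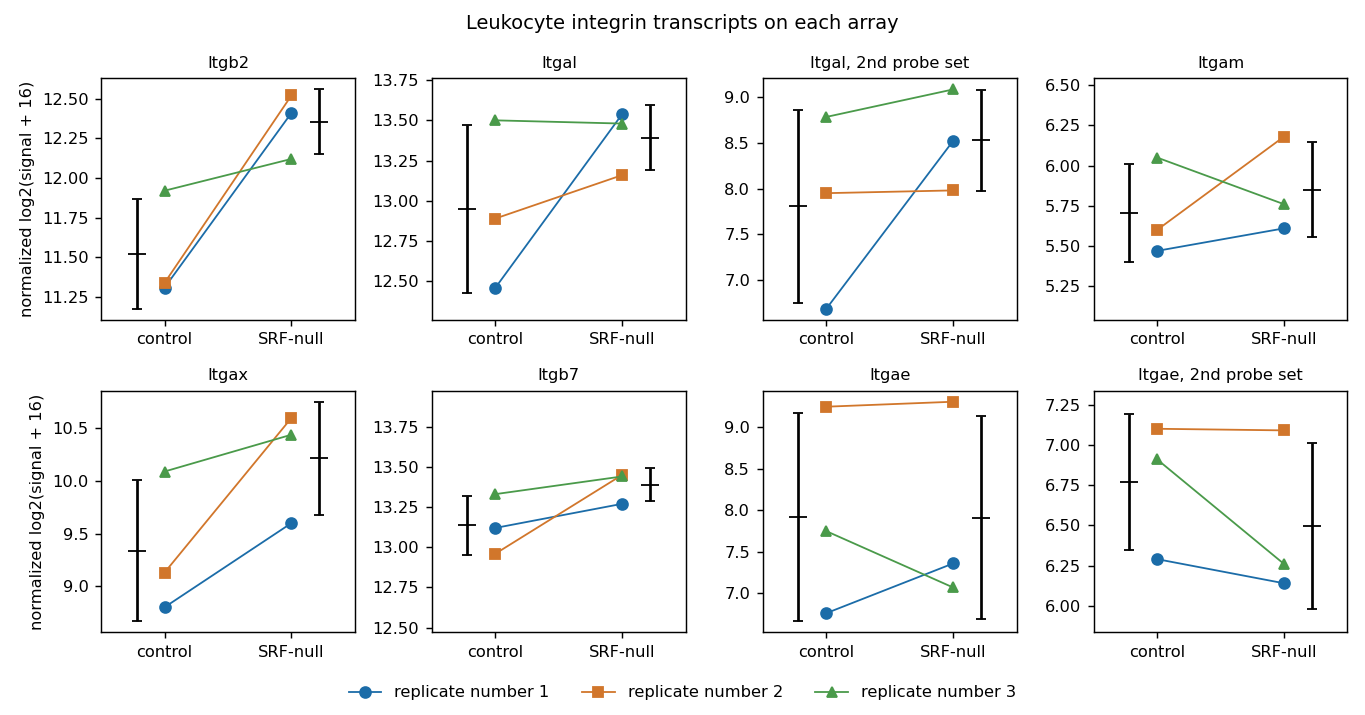
Normalized log2(signal + 16) of the 8 member probe sets on each array, with lines joining arrays of the same replicate number and black bars giving mean ± SD over 3 arrays; each panel has its own vertical range, at least 1.5 log2 units. Itgb2 is the only panel in which all 3 SRF-null arrays (12.12 to 12.52) lie above all 3 control arrays (11.31 to 11.92), while Itgae is highest on replicate number 2 of both genotypes.

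Itgax and Itgal, alpha partners of Itgb2, were higher on average in SRF-null cells, but their groups overlapped. Itgax encodes the alpha chain best known from dendritic cells and macrophages. It was at 8.80, 9.13 and 10.09 on control arrays 1 to 3 and at 9.60, 10.60 and 10.44 on SRF-null arrays 1 to 3. Control replicate 3 stood well above the other controls and above SRF-null replicate 1. The difference of 0.88 (SE 0.41, 1.84-fold) had an interval of −0.13 to 1.88 that contains 0 (limma adjusted p = 0.884). Blocking on the replicate number, the standard error was 0.25 and the interval 0.20 to 1.55, which lies above 0, and the limma adjusted p was 0.535. The difference was 1.23 without control replicate 3 and 0.62 without control replicate 1.

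Itgal encodes the LFA-1 alpha chain found on nearly all leukocytes. On its brighter probe set the control arrays 1 to 3 were at 12.46, 12.89 and 13.50, and the SRF-null arrays 1 to 3 at 13.54, 13.16 and 13.48. The low value was control replicate 1, and control replicate 3 was as high as the SRF-null arrays. The difference was 0.44 (SE 0.28, interval −0.24 to 1.12, limma adjusted p = 0.946). It was 0.20 without control replicate 1 and 0.72 without control replicate 3. The dimmer Itgal probe set read 6.69, 7.95 and 8.78 on control arrays and 8.52, 7.98 and 9.08 on SRF-null arrays. It too was lowest on control replicate 1, and it differed by 0.72 (SE 0.57, limma adjusted p = 1.00 over all probe sets).

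Itgam, the Mac-1 alpha chain of myeloid and NK cells, was dim on every array. Its deposited signal was 30.9 to 45.1 on control and 33.6 to 56.5 on SRF-null arrays. On the log2 scale control arrays 1 to 3 were at 5.47, 5.60 and 6.05 and SRF-null arrays 1 to 3 at 5.61, 6.18 and 5.76. The 6 arrays ran from 5.47 to 6.18 and the groups were interleaved. The difference of 0.14 (SE 0.22) had an interval of −0.40 to 0.68, or 0.760 to 1.61-fold, which spans both directions. Dim values this near the bottom understate any fold, and adding 1 in place of 16 gave a difference of 0.20. Itgad, the remaining alpha partner of Itgb2, had no probe set of its own in the annotation used and was not analysed here.

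Itgb7 had a small difference in the same direction as Itgb2, and the spread between arrays was small as well. Control arrays 1 to 3 were at 13.12, 12.96 and 13.33, and SRF-null arrays 1 to 3 at 13.27, 13.45 and 13.44. SRF-null replicate 1 lay below control replicate 3, so the groups overlapped. The difference was 0.25 (SE 0.14, interval −0.09 to 0.59, 1.19-fold, limma adjusted p = 0.929). Without control replicate 2, the lowest array, it was 0.16. Its partner Itga4, the alpha 4 chain, was at 16.20 ± 0.08 in control and 16.25 ± 0.12 in SRF-null cells on its brightest probe set (difference 0.06, SE 0.12, interval −0.24 to 0.35).

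Itgae, the other partner of Itgb7, varied more between arrays than any other member on its brighter probe set and not with genotype. Control arrays 1 to 3 read 6.76, 9.25 and 7.75, and SRF-null arrays 1 to 3 read 7.36, 9.31 and 7.07. Replicate number 2 was the highest array in each genotype, with deposited signals of 553.0 and 601.5 against 109.8 to 169.4 on the other 4 arrays. The difference was −0.01 (SE 0.82) and its interval of −2.01 to 2.00 is wide, and it was −0.76 to 0.75 with the replicate block. The dimmer probe set read 6.29, 7.10 and 6.91 on control and 6.14, 7.09 and 6.26 on SRF-null arrays, a difference of −0.27 (SE 0.33). It was also highest on replicate number 2 of each genotype, though control replicate 3 was close behind.

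Among the 6 members 5 were higher on average in SRF-null cells and 1 was lower, with a median difference of 0.35, where 48.6% of all genes were higher and the median of all genes was −0.01. By limma 0 members passed the adjusted threshold, and 1 of 6, Itgb2, had an unadjusted p under 0.05, against 5.74% of all genes. In the fit blocked on replicate number, Itgb2 and Itgax did, or 2 of 6 members, where 8.12% of all genes had an unadjusted p under 0.05 and 0.0% passed after adjustment. Deviations from the group means correlated weakly between arrays of the same replicate number (0.198, 0.125 and 0.367), and the labels state no pairing. Within every same-number pair Itgb2, Itgax and Itgb7 were higher in SRF-null cells. That makes 3 of 6 members, against 14.0% of all genes. The members were chosen with earlier results of these data known. Levels of these 3 genes correlated with each other over the arrays by 0.81 to 0.91, so they are not separate observations. For Itgb2 the 3 pair differences were 1.10, 1.18 and 0.20, for Itgax 0.80, 1.48 and 0.35, and for Itgb7 0.15, 0.49 and 0.12. Replicate number 3 gave the smallest difference for each of these genes. Itgal differed by 1.08, 0.27 and −0.03, Itgam by 0.14, 0.58 and −0.29, and Itgae by 0.60, 0.07 and −0.69. When the single-sex pools, control 2 and SRF-null 1, were left out, the differences were 1.08 for Itgax, 0.34 for Itgal, 0.21 for Itgam, 0.22 for Itgb7 and 0.94 for Itgae.

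**Figure D2:**
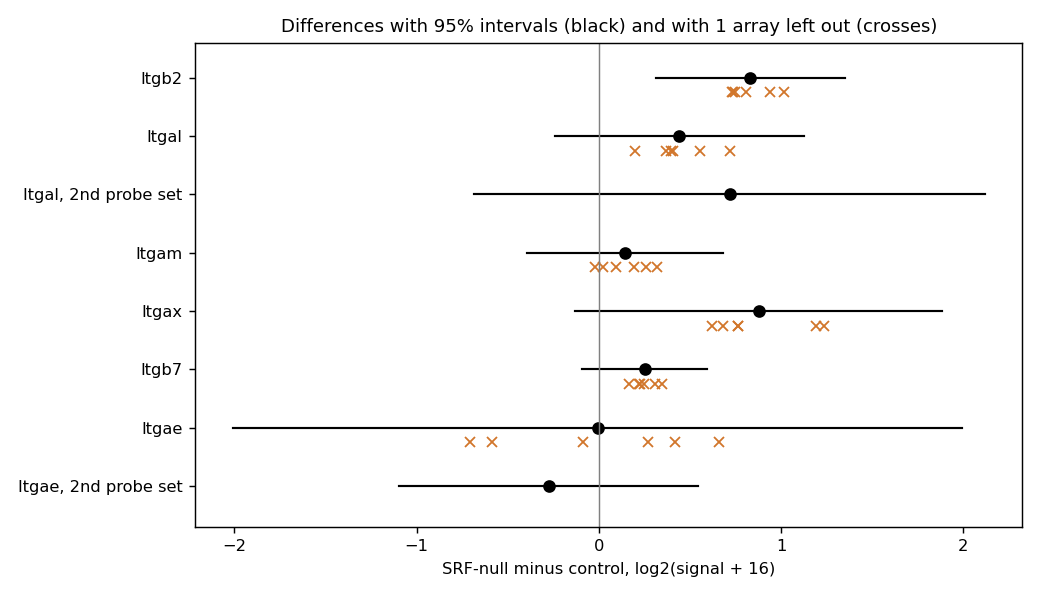
SRF-null minus control difference in log2(signal + 16) for each member probe set, with black points and lines for the limma estimate and its 95% interval and crosses for the estimate with 1 array left out (representative probe sets only). Only the Itgb2 interval (0.31 to 1.35) lies wholly above 0 in this fit without the replicate block, and the Itgae crosses fall on both sides of 0, from −0.71 to 0.66.

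The genes with the array profile closest to each member were listed by the root mean square (RMS) difference over 6 arrays, after centring each gene on its own mean. Candidates were 10761 genes with a mean of at least 8. Closest to Itgb2 were Cnn3, a calponin gene (RMS difference 0.083), Rgl1 (0.105), which encodes an activator of the RAL switch, and Arap2 (0.109), and all 3 were higher in SRF-null cells, by 0.96, 0.96 and 0.65. The other 5 probe sets of Cnn3 differed by 1.09 to 1.55. Closest to Itgax were Rnf157 (0.104), Ankrd6 (0.132) and Nat8l (0.210). Closest to Itgal were Kif11 (0.098), the gene of a mitotic spindle motor, Stil (0.101), a centriole duplication gene, and Shcbp1 (0.107). Closest to Itgb7 were 2310022A10Rik (0.047), the interferon gamma receptor gene Ifngr1 (0.049) and Acaa2 (0.054). Closest to Itgam were Zfp358 (0.058), Med20 (0.066) and Zfp691 (0.068). The closest profile to Itgae was that of Ifit1bl1 (0.321), which belongs to a family of interferon-induced genes, followed by Acpp (0.396) and Galnt5 (0.443). Ifit1bl1 was at 12.84 and 12.48 on replicate number 2 of control and SRF-null cells and at 10.46 to 10.81 on the other 4 arrays. These profiles share their arrays and were picked for likeness, so the values describe the arrays only.

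The remaining integrin subunits, which form the receptors for matrix proteins and the platelet integrin, showed no common direction. Of 20 named genes 18 were measured, 9 higher and 9 lower, with a median of 0.02. By limma 0 passed the adjusted threshold and 1 of 18, Itgb3, had an unadjusted p under 0.05, against 5.74% of all genes. Itgb3, the beta chain of the platelet integrin and of the vitronectin receptor, was at 13.08, 13.35 and 13.82 on control and at 12.49, 12.53 and 13.11 on SRF-null arrays. It differed by −0.70 (SE 0.26, limma adjusted p = 0.833), and SRF-null replicate 3 overlapped the controls. Itga9 differed by 0.71 (SE 0.31) and the dim Itga8 by 0.22 (SE 0.11). The broadly expressed beta 1 chain gene Itgb1 differed by 0.09 (SE 0.19). Itgb2l, a gene named for its likeness to Itgb2, had 3 probe sets, none above 5.37 on any array.

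Ligands of these integrins were measured in the same LSK pools. Of 15 named ligand genes 14 were measured, 9 higher and 5 lower, with a median of 0.13, and 0 passed. Icam1 and Icam2, which encode ligands of LFA-1, differed by 0.13 (SE 0.17) and 0.13 (SE 0.12). Jam3, which encodes a junction protein bound by Mac-1, was at 7.98, 8.15 and 7.59 on control and at 6.44, 7.01 and 6.83 on SRF-null arrays, and the groups did not overlap. It differed by −1.14 (SE 0.22, limma adjusted p = 0.535), whereas its dimmer probe set differed by 0.79 (SE 0.31), in the opposite direction and also without overlap. The next in order of p were the fibrinogen gene Fgb (0.48, SE 0.24), which was dim, and Vcam1 (1.01, SE 0.59), a ligand of alpha 4 beta 7. Cdh1, which encodes the Itgae ligand E-cadherin, differed by 1.12 (SE 0.71).

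Of the genes that regulate integrin activation from inside the cell, 0 passed the threshold. They include talin and kindlin, which bind beta chain tails, and the RAP1 switch that recruits them. Of 23 named genes 22 were measured, 7 higher and 15 lower, with a median of −0.04. The list was not limited to activators, so these counts do not give a direction of activation. The hematopoietic kindlin gene Fermt3 differed by −0.01 (SE 0.16, interval −0.40 to 0.37), the talin gene Tln1 by −0.12 (SE 0.14), Rap1a by −0.04 (SE 0.15) and Rap1b by −0.05 (SE 0.11). The members with the smallest p were Prkd1 (−0.82, SE 0.27) and the kindlin gene Fermt2 (−0.46, SE 0.22), both below 6 on every array, and the adaptor gene Dok1 (−0.21, SE 0.13).

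Among genes that carry signals from engaged integrins into the cell, the ITAM adaptor genes Tyrobp and Fcer1g had the smallest p. These adaptors, DAP12 and the Fc receptor gamma chain, are known to pass beta 2 integrin signals to the kinase SYK in myeloid cells. Tyrobp was at 15.38, 15.44 and 15.54 on control and at 15.90, 15.87 and 15.96 on SRF-null arrays. Its arrays were tightly grouped and did not overlap, and it differed by 0.46 (SE 0.11, limma adjusted p = 0.610). Fcer1g was at 14.41, 14.21 and 15.11 on control and at 15.36, 15.78 and 15.67 on SRF-null arrays, so control replicate 3 was again the highest control. It differed by 1.03 (SE 0.26, limma adjusted p = 0.633). The kinase subunit gene Pik3cd differed by −0.48 (SE 0.19). Of 23 named signalling genes 20 were measured, 9 higher and 11 lower, with a median of −0.01, and 0 passed.

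Among transcription factor genes linked to leukocyte integrin expression, Ets1 had the smallest p. Of 15 named genes 13 were measured, 9 higher and 4 lower, with a median of 0.06, and 0 passed. Spi1, which encodes PU.1, differed by −0.12 (SE 0.16, interval −0.51 to 0.26). Ets1 was at 13.53, 13.26 and 13.62 on control and at 14.12, 13.95 and 13.98 on SRF-null arrays, without overlap, and differed by 0.54 (SE 0.14, limma adjusted p = 0.642). Its other 3 probe sets differed by 0.51, 0.53 and 0.69, in the same direction. Mzf1 differed by 0.45 (SE 0.20) near the bottom of the scale and Runx1 by 0.41 (SE 0.21).

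**Figure D3:**
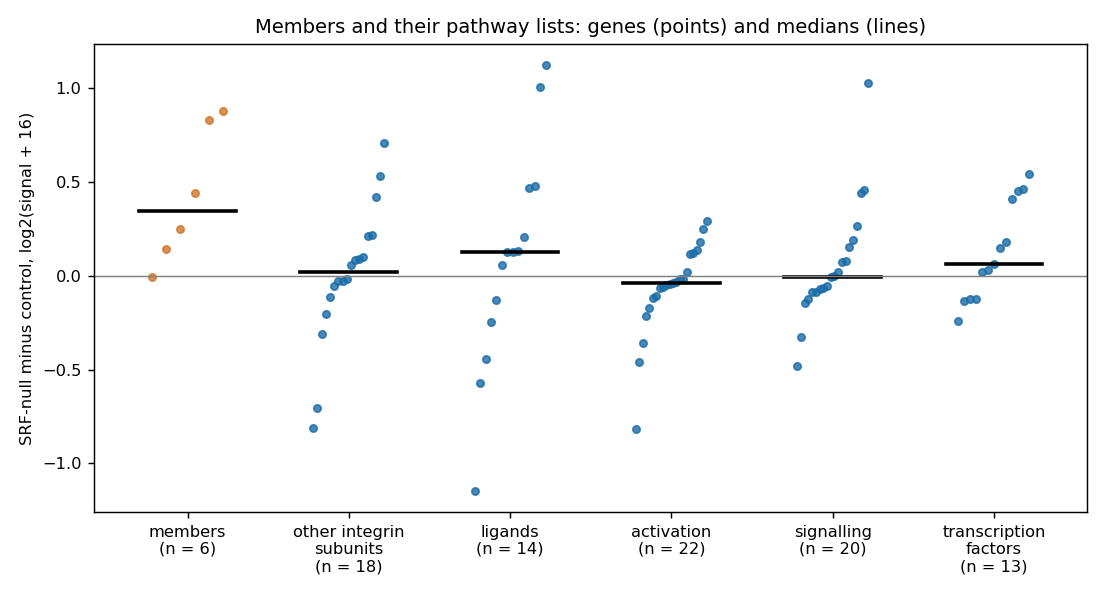
SRF-null minus control difference in log2(signal + 16) of the 6 members and of the measured genes of 5 pathway lists, 1 point per gene, with black lines at the medians. The members' median is 0.35, and those of the lists run from −0.04 (activation) to 0.13 (ligands).

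Lists of genes tied to blood cell types were set beside the members. These lists are not limited to mature cells, and Flt3 is in both the LSK and the dendritic cell list. In the monocyte and macrophage list 20 of 23 genes were measured, 16 were higher and 4 lower, and 6 had an unadjusted limma p under 0.05. All 6 of these were on the higher side, which was so for 2.91% of all genes. The summed deposited signal of this list was 120164 to 146753 on control and 148155 to 169685 on SRF-null arrays, narrowly without overlap. A sum weighs bright genes most and does not describe the list as a whole. The bright Ctss was at 14.57 ± 0.20 in control and 15.32 ± 0.24 in SRF-null cells, without overlap. The brighter Lyz2 was at 16.21 ± 0.25 and 16.14 ± 0.07. The list's mean log2 levels overlapped between genotypes. On arrays 1 to 3 they were 8.52, 8.93 and 9.19 in control and 8.97, 9.60 and 10.09 in SRF-null cells. The genes with the smallest p were Timd4 (1.24, SE 0.23), which was dim, the protease gene Ctss (0.75, SE 0.18) and the mannose receptor gene Mrc1 (2.08, SE 0.54). The scavenger receptor genes Msr1 and Marco were below 6 on every array. The part of these cells in the Itgb2 and Itgax values was not tested.

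Of the T and NK cell markers 25 of 27 genes were measured, 19 higher and 6 lower, with differences from −1.22 to 3.09. On the higher side 6 genes had an unadjusted limma p under 0.05, which was so for 2.91% of all genes. Groups did not overlap for 5 genes on the higher and 2 on the lower side. Among all genes 5.14% did so on the higher side and 10.6% in either direction. The summed signal of the list was 72113 to 83725 on control and 93995 to 102993 on SRF-null arrays, again without overlap. Its mean log2 level was 6.89 to 7.41 on control and 7.14 to 8.30 on SRF-null arrays, which overlap. Cd7 (1.74, SE 0.27), Cd247 (0.68, SE 0.17) and Klrd1 (1.42, SE 0.39) had the smallest p. The T cell receptor complex genes Cd3d and Cd3g and the T cell gene Cd8b1 were below 6 on every array, as were Klra8 and Eomes. Their part in the Itgb2, Itgal and Itgb7 values was not tested.

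The granulocyte list had 13 of 19 measured genes higher and the dendritic cell list 14 of 17, where 48.6% of all genes were higher. An unadjusted limma p under 0.05 was reached by 1 granulocyte and 0 dendritic cell genes, against 5.74% of all genes. Groups did not overlap for 2 granulocyte and 0 dendritic cell genes, against 10.6% of all genes. The summed signals of the genotypes overlapped in both lists (303352 to 497293 on control against 390334 to 525948 on SRF-null arrays, and 213515 to 253307 against 224186 to 324635). Clec4d (0.84, SE 0.25) led the granulocyte list, where the granule gene Ltf was below 6 on every array, and Ccr7 (0.72, SE 0.41) led the dendritic cell list, where Cd209a was. The B cell list had 12 of 18 higher and 6 lower, with differences from −3.06 to 1.79. It had the lymphoid enzyme gene Dntt at 0.39 (SE 0.13) and Pax5, Cd22 and Cr2 below 6 on every array. The mast cell and basophil list had 5 of 12 higher, with Cma1 at −1.68 (SE 0.40) and Mcpt4 and Tpsab1 below 6 on every array. RNA quality was read from the 3′ over 5′ signal of the control probe sets of Actb, which was 1.18 to 1.45 log2 units on control and 0.93 to 1.51 on SRF-null arrays. This ratio was highest on replicate number 2 of each genotype, the arrays on which Itgae was highest, and its part in the Itgae values was not tested.

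**Figure D4:**
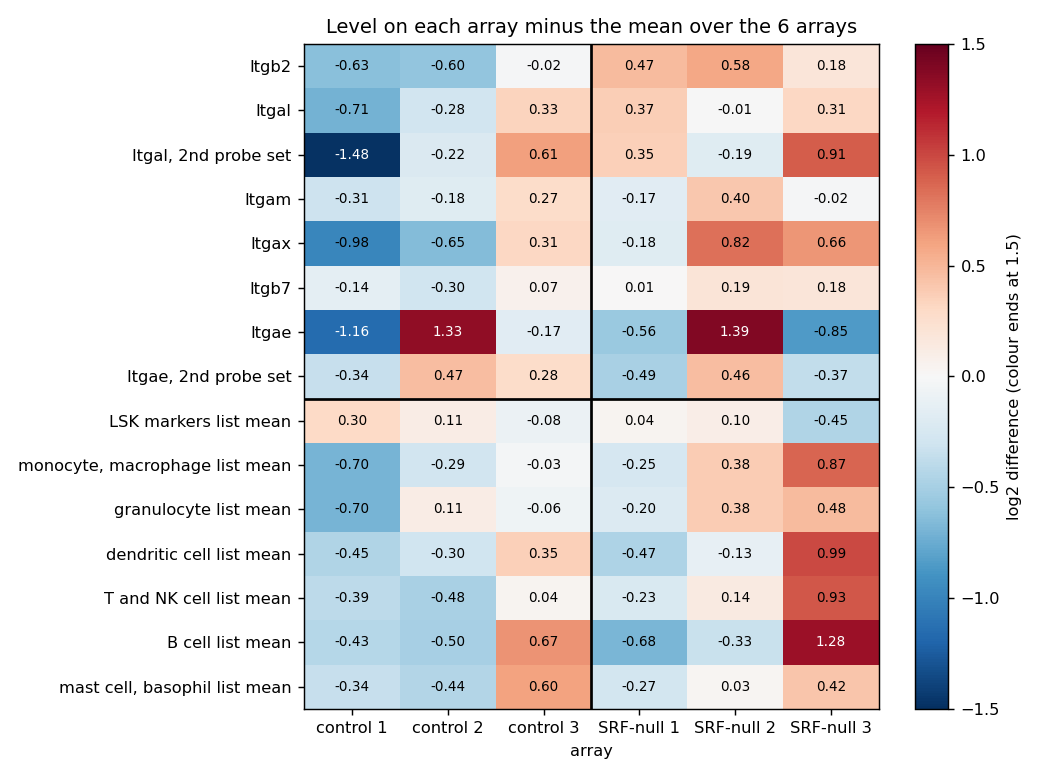
Level of each member probe set (upper block) and mean level of each marker list (lower block) on the 6 arrays, as log2 difference from the mean over the arrays, printed in each cell and coloured from blue (lower) to red (higher). Itgb2 is at −0.02 or below on control arrays and at 0.18 or above on SRF-null arrays. The cell type lists other than LSK are highest on SRF-null replicate 3, except that the mast cell and basophil list is highest on control replicate 3 (0.60).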

How the data were processed

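RNA of LSK cells sorted by flow cytometry was amplified from 30 ng with a NuGEN kit, biotin-labelled and hybridised to Affymetrix arrays, per the labels' protocols. Each probe set has 1 linear intensity per array in the deposited table. This unit was read from the values, and how the authors corrected background, summarised probes and scaled arrays is not stated in the labels. No detection calls were used, so the number of arrays and the signal above the bottom of the scale limit precision.

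Intensities were converted to log2(value + 16) and quantile normalized over all 45101 probe sets, since array medians differed by 0.51. The 64 control probe sets were left out, and each of 18193 genes was represented by its brightest probe set naming that gene alone. The second probe sets of Itgal and Itgae were tested in a fit over all 45037 probe sets. Genotype was the only term in limma 3.58.1 (R 4.3.3), two-sided, with Benjamini-Hochberg adjustment, and the fit was tested on simulated data. Figures were drawn with matplotlib 3.10.9. Replicates carry numbers 1 to 3 in both genotypes. Deviations from the group means correlated by 0.198, 0.125 and 0.367 across genes for equal numbers and by −0.237 to 0.032 for unequal ones. Deviations within a group sum to 0, so these correlations are not independent of each other. By the rule of a correlation above 0.1 in every pair the numbers were treated as a possible pairing. The labels state no pairing, so genotype remained the only term in the main fit.

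Named genes are the members, Srf, Itga4, Itgad, up to 3 genes per list with the smallest p, marker genes below 6 on every array, and the 3 closest profiles to each member. Others (Itgb1, Itgb2l, Icam1, Icam2, Cdh1, Fermt3, Tln1, Rap1a, Rap1b, Spi1 and Kit) were named for their roles, after their values were seen. Lyz2, named beside Ctss, also falls outside these rules. The 12 lists name 227 genes, of which 205 were measured. The members and the lists were chosen with earlier results of these data known. Alternatives were the offset, the normalization, the choice of probe sets, a filter on dim genes, the variance model, the replicate number as a block and leaving out arrays.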

Additional observations from a re-analysis of the deposited data

How the results depend on the processing

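Over 17 alternatives each, or 16 where the filter on genes above the median level removed the gene (Itgam, Itgax and Itgae), the differences of Itgb2, Itgal, Itgax and Itgb7 kept their direction and 0 members passed an adjusted p of 0.05. Itgb2 ran from 0.71 to 1.02, with an unadjusted limma p under 0.05 in 16 of 17 alternatives and adjusted p-values from 0.477 to 1.00. Leaving out 1 array at a time, the differences ranged from 0.73 to 1.02 for Itgb2, 0.20 to 0.72 for Itgal, 0.62 to 1.23 for Itgax, 0.16 to 0.35 for Itgb7, −0.021 to 0.32 for Itgam (below 0 without SRF-null replicate 2) and −0.71 to 0.66 for Itgae. The Itgae difference, −0.01 as reported, turned above 0 with median centring (0.0022), upper quartile centring (0.063) and no normalization between arrays (0.023). It also did so without control replicate 2 (0.66), without SRF-null replicate 1 (0.27), without SRF-null replicate 3 (0.42) and without both single-sex arrays (0.94). In a fit that takes the replicate number as a block, member differences were the same (0.83 for Itgb2, limma adjusted p = 0.541) but their standard errors were not: that of Itgax was 0.25 against 0.41, that of Itgae 0.28 against 0.82 and that of Itgb2 0.24 against 0.21. The 95% interval of Itgax then lay above 0 (0.20 to 1.55). After adjustment 0 genes passed, as without the block, and 1478 genes had an unadjusted p under 0.05 against 1044. The count of genes past the threshold was 0 as reported and 1 with median centring, with a trended and robust variance (Mocs1 in both) and without control replicate 2 (Ccnb1ip1); the cause was not tested. Itgam, near the bottom of the scale, is the member whose fold depends most on the offset (0.20 with an offset of 1 and 0.08 with 64).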
